A study of Homo sapiens with 8 samples.

Results

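Keratins, cadherins, vimentin and their regulators mark whether a cell is epithelial or mesenchymal. The set described here holds 10 such genes (KRT7, KRT8, KRT18, KRT19, CDH1, CDH2, VIM, EPCAM, ZEB1 and SNAI2), chosen by symbol, each with 1 gene model among the 25918 of the deposited table. The samples were 8 libraries from cultures labelled HepG2, a hepatocarcinoma line: 1 m6A immunoprecipitation (IP) library and 1 input library for each of 4 treatments, with no untreated culture analysed here. One culture was UV-irradiated (0.04 J per square centimetre) and left to recover for 4 h. Heat shock was given at 43 degrees for 30 min, and the labels leave unclear whether the recovery also applied to it. The other cultures were kept overnight in HGF, the hepatocyte growth factor that activates MET, at 10 ng/ml or in interferon gamma (IFNg) at 200 ng/ml. With 1 library of each kind per treatment there is no replicate check, so no p-value, error or count of changed genes with a test is given.

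As background, simple epithelia build intermediate filaments from a type II keratin, such as KRT8 or KRT7, paired with a type I keratin, such as KRT18 or KRT19. Hepatocytes are known for KRT8 and KRT18, and bile duct cells carry KRT7 and KRT19 as well. Mesenchymal cells instead build filaments of vimentin (VIM). E-cadherin (CDH1) and EPCAM hold epithelial cells together, while N-cadherin (CDH2) is the usual cadherin of mesenchymal and neural cells and is also found on hepatocytes. ZEB1 and SNAI2 (Slug) are transcription factors known to repress CDH1. N6-methyladenosine (m6A), the commonest internal mark of mRNA, is deposited mainly on an A inside sequences such as GGAC, and was mapped by sequencing fragments of about 100 nt pulled down with an antibody.

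Expression is given as the deposited rank within each treatment, written as a percentile from 0 to 100, where 100 is the highest. It holds no amounts, it is not stated to be per length, and the library (IP or input) and depth behind it are unknown. An order of genes is therefore an order of deposited ranks only. Gene models tied at the lowest rank form a floor, at percentile 45.5 with UV, 32.7 with heat shock, 20.4 with HGF and 18.4 with IFNg. A gene at the floor is not shown to be absent. Between treatments, values under 45.5 were raised to it, and a gene was said to stand apart in a treatment when it lay at least 10 points beyond the nearest of the other 3.

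The letters around the vimentin peak that 2 treatments shared are shown first, because VIM had the highest ranks of the set. Its listed peaks fell in exon 1, which the table gives as 710 bases long. GENCODE 29 has 1 VIM exon of that length, with its first coding base at position 148. It was matched by gene and length alone, so positions could shift if the deposited exon begins elsewhere. The stretches below are on the transcript strand, counted from base 1 of that exon, with each GGAC in capitals.
VIM, bases 381 to 440, at the peak of UV and heat shock: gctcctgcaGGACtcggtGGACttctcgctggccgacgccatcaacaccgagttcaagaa
VIM, bases 621 to 680, at the second peak of UV: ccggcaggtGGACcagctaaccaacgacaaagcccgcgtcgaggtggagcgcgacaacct
GGAC, searched on the transcript strand only, began at 5 places in this exon, at bases 390, 399, 588, 630 and 687. The peak positions of heat shock (424) and UV (429) lay 25 and 30 nt after the start of the GGAC at 399, and the second UV position (643) lay 13 nt after the one at 630. Of 60-base windows laid end to end over the longest transcripts of 16260 genes, 19.0% held GGAC. Such a match is common and does not place the methylated base. The printed stretches hold the peak positions but are not centred on them, and each begins shortly before a GGAC. That they hold GGAC therefore cannot be set against this share.

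The ranks of these genes followed the pattern of liver cells that the label implies only in part. High ranks of KRT8, KRT18 and CDH2 go with hepatocytes, while those of VIM and KRT7 do not. VIM and KRT7 were near the very top in all 4 treatments, with KRT8 and KRT18 close behind, and CDH2 was high. CDH1 and EPCAM were the lowest of the set, with EPCAM at the floor in 3 treatments and CDH1 above it in all 4. ZEB1, SNAI2 and KRT19 lay between. Most defining genes of hepatocytes were at or under percentile 45.5 throughout.

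KRT8 (chromosome 12, 51577238 to 51585127, minus strand, in the table's own coordinates, whose build no source used here names) stood at percentile 98.6 with UV, 97.3 with heat shock, 99.3 with HGF and 99.6 with IFNg. From the top of the table these are ranks 351, 710, 195 and 96. KRT18 (chromosome 12, 51629110 to 51632952, plus strand), its usual partner, stood at 98.4, 97.6, 99.2 and 99.5, or ranks 404, 626, 203 and 128. The order of the treatments was the same for the pair: IFNg highest, then HGF, UV and heat shock. Among 16305 recognised symbols, KRT18 was the gene whose 4 percentiles lay closest to those of KRT8, and KRT8 the closest to KRT18, with a largest difference of 0.324 points. Close neighbours are common at this height, with 33 symbols within 1 point of KRT8 and 49 within 1 point of KRT18. Both genes are known to have many processed pseudogenes, and how shared reads were counted is not stated in any source used here.

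KRT7 (chromosome 12, 50913221 to 50928976, plus strand), a keratin of ducts and not of hepatocytes, stood at 99.8 with UV, 99.7 with heat shock, 99.2 with HGF and 99.7 with IFNg. These are ranks 56, 82, 210 and 74 from the top. Its deposited rank was above those of KRT8 and KRT18 in every treatment except HGF, where the 3 lay at ranks 210, 195 and 203. The symbols closest to KRT7 were B2M (largest difference 0.162 points), SNORD32A and TUBB, among 127 within 1 point. KRT19 (chromosome 17, 36933395 to 36938167, minus strand), the other duct keratin, was far lower, at 68.6, 58.8, 79.2 and 68.1. Its value after HGF lay 10.6 points above the nearest other treatment, and it was the only 1 of the 8 members past the filter (percentile 60 or more in any treatment) to stand apart anywhere. That is 12.5% of them, against 19.4% of the 12624 gene models past the filter, and 1.57% of models stood apart upward after HGF. No member stood apart in the other treatments. There, models higher and lower made up 1.93% and 2.17% with UV, 2.87% and 3.98% with heat shock, and 3.39% and 3.02% with IFNg. The members cannot be compared evenly with these shares. VIM, KRT7, KRT8 and KRT18 lay at 97.3 or above in every treatment, which left them no room to stand apart upward. On a log2 scale of rank from the top, KRT7 and KRT8 did stand apart. Ranked again among models above the floor in all 4 treatments, KRT19 had gaps of 20.4 points in HGF and -16.4 in heat shock. VIPR2 was closest to KRT19, within 2.28 points, followed by P4HTM. The difference in KRT19 had no replicate check. With a correction for GC content, KRT19 no longer stood apart.

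Of 51 other keratin symbols in the table, 6 passed the filter, beside 12408 of all 24721 symbols. In all 4 treatments, 20 of the 51 were at or under percentile 45.5 (39.2%, against 28.0% of all symbols). The highest was KRT17, a keratin of basal and stressed epithelium, at 99.6 with UV, 99.3 with heat shock, 99.3 with HGF and 99.9 with IFNg. KRT80 stood between 83.7 and 89.7. These 2 are named with their values in view. After HGF, 3 keratins stood apart downward: KRT16 (54.5, and 68.9 to 85.8 elsewhere), KRT14 (52.7, and 65.6 to 85.4 elsewhere) and KRT10 (67.1, and 77.5 to 84.1 elsewhere). Across all models past the filter, 1.39% stood apart downward after HGF. KRT14, KRT16 and KRT17 are near-identical over long stretches, so reads may have been split among them.

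**Figure D1:**
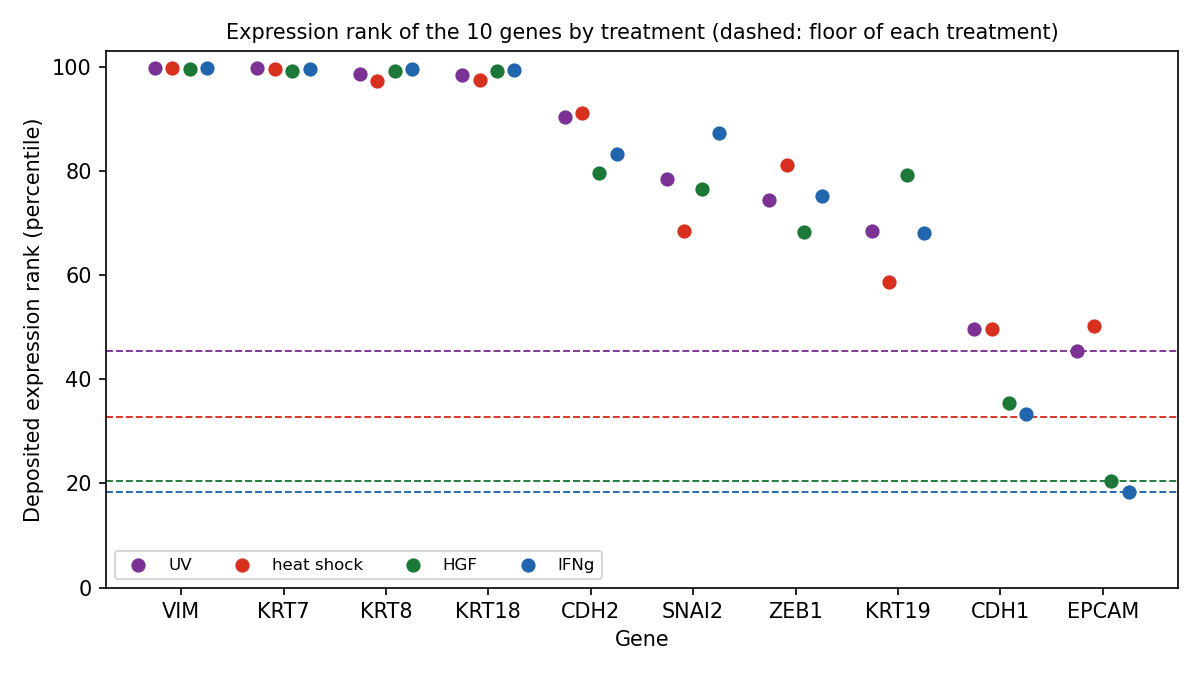
Deposited expression rank (percentile, y axis) of the 10 genes (x axis) in the 4 treatments, 1 dot per treatment with no replicates, with dashed lines at each treatment's floor. VIM, KRT7, KRT8 and KRT18 lie at 97.3 or above in all 4 treatments, and EPCAM lies on the floor in all but heat shock.

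CDH1 (chromosome 16, 67328696 to 67426945, plus strand), the epithelial cadherin, stood at 49.7 with UV, 49.6 with heat shock, 35.4 with HGF and 33.3 with IFNg. It was above the floor in all 4 treatments, with 1076, 4379, 3869 and 3844 gene models between it and the floor. It did not pass the filter in any treatment. EPCAM (chromosome 2, 47449971 to 47467661, plus strand) stood at 50.2 with heat shock and exactly at the floor after UV, HGF and IFNg. It also failed the filter.

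CDH2 (chromosome 18, 23784933 to 24011189, minus strand) is the cadherin of mesenchymal and neural cells that is also found on hepatocytes. It stood at 90.4 with UV, 91.2 with heat shock, 79.6 with HGF and 83.3 with IFNg. UV and heat shock were the higher treatments, and the gap between the nearest values of the 2 pairs was under the 10 points used here. CDH2 ranked above CDH1 in every treatment. Of 21 other cadherin symbols, 10 (47.6%, against 28.0% of all 24721 symbols) were at or under percentile 45.5 throughout. The filter was passed by 3 of them, beside 12408 of all symbols. Those 3 were CDH13 (63.1 to 72.5), CDH24 (45.5 to 74.3) and P-cadherin, CDH3 (55.8 to 62.8), so none reached the ranks of CDH2. Over the 4 treatments EXOSC8 lay closest to CDH2, within 0.540 points, followed by ZFX and NBN.

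VIM (chromosome 10, 17311281 to 17319598, plus strand) stood at 99.8, 99.8, 99.7 and 99.8 with UV, heat shock, HGF and IFNg, or ranks 50, 50, 75 and 53 from the top. Its spread over the treatments was 0.0965 points, the smallest of the set. The symbols closest to it were RPL19 and RPS6, components of the ribosome, and NDUFS6, none more than 0.0926 points away in any treatment. Percentiles compress differences among the highest genes, so a steady rank does not show a steady amount.

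ZEB1 (chromosome 10, 31648107 to 31858130, plus strand) stood at 74.6 with UV, 81.1 with heat shock, 68.3 with HGF and 75.2 with IFNg. SNAI2, on chromosome 8, stood at 78.5, 68.4, 76.7 and 87.4. The factors were opposed in heat shock, which was the highest treatment for ZEB1, with a gap of 5.88 points to the nearest other, and the lowest for SNAI2, with a gap of -8.21 points. SNAI2 was highest after IFNg, 8.91 points above UV. None of these gaps reached 10 points. With GC correction SNAI2 did stand apart, with gaps of -12.7 points in heat shock and 10.2 in IFNg. Ranked again among models above the floor in all 4 treatments, its gaps were -15.9 and 17.6 points, and those of ZEB1 were 10.9 in heat shock and -11.2 in HGF. ZEB1 had its closest neighbours over the 4 treatments in NRIP1 (largest difference 1.21 points), SAMD9 and AVL9, and SNAI2 in RASSF1 (2.35 points), with no symbol within 1 point of either.

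The label was checked against 5 lists of cell type markers. Of 23 hepatocyte genes, 16 were at or under percentile 45.5 in all 4 treatments, which is 69.6% against 28.0% of all 24721 symbols, and none reached the 90th percentile in any treatment. Albumin (ALB) stood at 45.5, 57.6, 24.9 and 22.3 with UV, heat shock, HGF and IFNg, which is the floor after UV. The fetal liver protein AFP stood at 45.5, 32.7, 20.4 and 22.4, the floor in all but IFNg. APOA1 stood at 45.5, 32.7, 36.8 and 34.9, and the liver transcription factor HNF4A at 45.5, 41.5, 33.3 and 56.9. Only 2 of the 23 passed the filter, beside 12408 of all 24721 symbols. They were transthyretin (TTR), at 76.1, 71.5, 43.0 and 42.0, and the transcription factor CEBPA, at 62.6 to 68.4. HepG2 cells are known for secreting albumin, AFP and apolipoproteins, so the deposited ranks went against the label in every treatment. Whether those ranks come from IP or input reads is not stated. Since all libraries carry the same label, no result could be given without them.

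The other marker lists did not name the cells either. Of 14 cholangiocyte genes, which include KRT7, KRT19 and EPCAM, 7 passed the filter and 4 (28.6%) were at or under 45.5 throughout. Of all 24721 symbols, 12408 passed and 28.0% were at or under 45.5 throughout, close to the shares of this list. Of the 14, KRT7 was the only 1 at the 90th percentile or above in all 4 treatments. CFTR and SCTR, picked with their values in view, were at or near the floor. Of 11 fibroblast or stellate genes, 6 passed. COL1A1 stood between 60.7 and 83.6, but its partner chain COL1A2 stood at 45.5, 33.2, 20.6 and 18.5, at the floor or just above it. LUM, picked with its values in view, ranked highest of this list in every treatment. It stood at 92.9 with UV, 95.5 with heat shock, 90.2 with HGF and 81.1 with IFNg. DCN, COL3A1, ACTA2 and THY1 also passed, while 3 of the 11, COL1A2 among them, were at or under 45.5 throughout. None of 8 endothelial genes passed, with PECAM1 between 32.7 and 54.4 and CDH5 between 38.6 and 50.9. Among 6 blood genes present, CD68 (56.1 to 89.2) passed, and HBB passed only through UV (60.9), with the floor elsewhere. PTPRC stood between 26.5 and 45.5 and CD3E between 32.7 and 55.2. Fewer cells of a type and less RNA per cell cannot be told apart in such bulk samples.

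**Figure D2:**
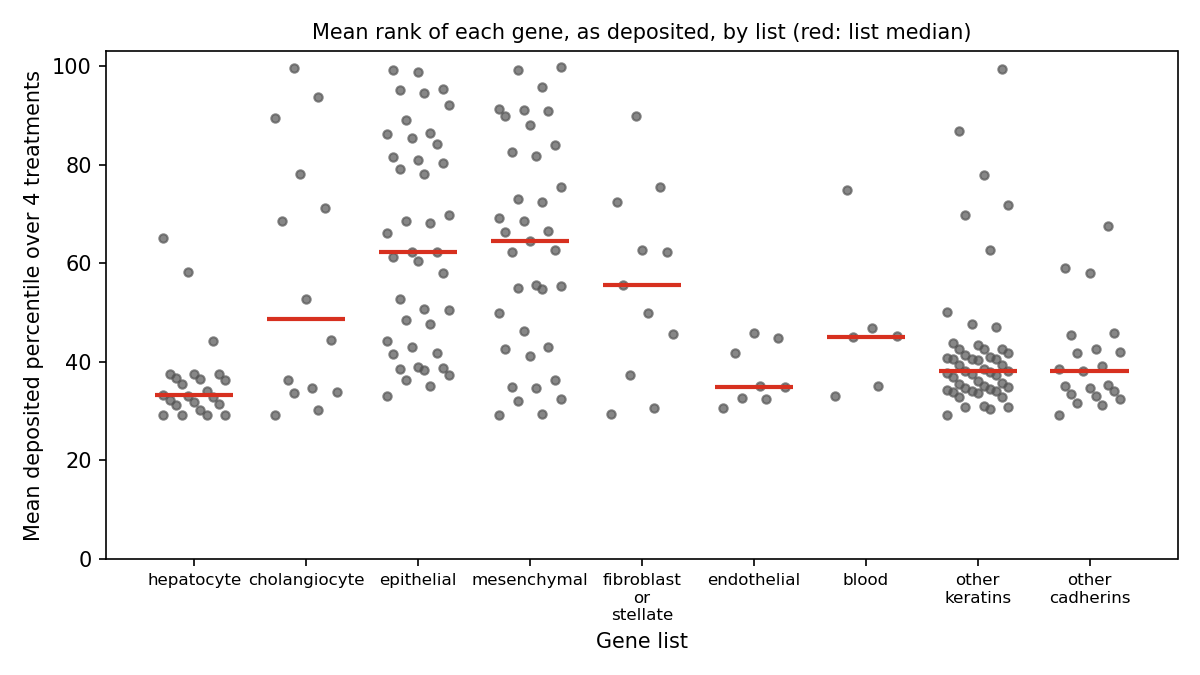
Mean deposited percentile over the 4 treatments (y axis) of each gene in 9 lists (x axis), 1 dot per gene, with the list median in red. Hepatocyte genes cluster low, with TTR and CEBPA above the rest, while the epithelial and mesenchymal lists each spread over most of the range.

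Epithelial and mesenchymal genes outside the 10 were each found from the floor to the top of the ranking. Of 42 epithelial junction genes and regulators in the table, 28 passed the filter, 3 were at or under 45.5 throughout and 5 were at the 90th percentile or above in all 4 treatments. Of 37 mesenchymal genes, 23 passed, 6 were at or under 45.5 and 3 were at 90 or above. Over all 24721 symbols, 12408 passed, 28.0% were at or under 45.5 throughout and 5.75% were at 90 or above in all 4. The median percentiles of the epithelial list were 62.0 with UV, 61.3 with heat shock, 66.3 with HGF and 65.2 with IFNg. Those of the mesenchymal list were 63.8, 61.4, 61.4 and 66.3, and those of all symbols 51.5 in each treatment.

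The 5 epithelial genes at 90 or above were parts of desmosomes, catenins and a tight junction scaffold. Desmoplakin (DSP), which anchors keratin filaments at desmosomes, stood between 97.9 and 99.2, and desmoglein DSG2 between 90.1 and 94.5. The catenins CTNNA1 (99.0 to 99.3) and CTNNB1 (93.1 to 97.2), which link cadherins to actin, were as high, and so was the tight junction scaffold TJP1 (92.9 to 95.7). The epithelial transcription factors GRHL2 (32.7 to 46.3) and OVOL2 (25.4 to 45.5) and the claudin CLDN4 (32.7 to 51.9) were low, as CDH1 was. Other factors and claudins of the list were mixed. ELF3 (77.3 to 91.3), CLDN7 (58.3 to 83.9) and CLDN1 (58.8 to 72.9) were higher, while GRHL1, OVOL1 and CLDN6 did not pass the filter. The 3 mesenchymal genes at 90 or above were S100A4 (99.7 to 99.9), moesin (MSN, 99.2 to 99.4) and caldesmon (CALD1, 94.8 to 97.4). Of other factors of the ZEB1 and SNAI2 kind, TWIST1 stood between 70.3 and 77.8, ZEB2 between 59.0 and 70.2, and SNAI1 between 49.1 and 58.3. The genes GRHL1, GRHL2, OVOL1, OVOL2, ELF3, CLDN1, CLDN4, CLDN6, CLDN7, TWIST1, ZEB2 and SNAI1 were picked with their values in view.

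Some of these genes stood apart in a treatment. In the epithelial list, MUC1, a mucin of gland surfaces, stood at 96.6 with IFNg and between 67.8 and 79.4 elsewhere. The tricellular junction protein LSR stood at 81.9 with IFNg and at 37.7 with heat shock, apart in each, with 59.2 with UV and 70.2 with HGF. CLDN3 stood at 67.6 with IFNg and at 55.9 or lower elsewhere, and CLDN12 at 49.2 with IFNg and between 62.1 and 66.9 elsewhere. That is 3 of 28 genes higher and 1 lower after IFNg, beside 3.39% and 3.02% of all models past the filter, and 1 lower after heat shock, beside 3.98%. CLDN3 passed the filter only through IFNg, so its place in this count rests on the same value. In the mesenchymal list, tenascin (TNC) stood at 82.9 with IFNg and between 62.7 and 68.2 elsewhere, and THY1 at 43.1 with IFNg and between 56.0 and 61.4 elsewhere. So 1 of 23 was higher and 1 lower after IFNg, beside those same shares of all models, and none stood apart in the other treatments.

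Rank differences between treatments moved with GC content across the table. Across all models past the filter, the mean of UV and heat shock minus the mean of HGF and IFNg had a median of 8.52 points where transcript GC was 41.8% or less and -9.34 points where it was 56.5% or more. KRT19, with a GC content of 61.8%, had a difference of -9.96 points. ZEB1 (38.5% GC) had 6.06 points and CDH2 (45.0% GC) had 9.40. SNAI2 went against this order, at 41.4% GC and -8.56 points, and KRT7, at 62.9% GC, had 0.282 points. After the median of models of like GC was subtracted, the differences were 3.56 points for KRT19, -3.14 for ZEB1, 4.68 for CDH2 and -15.8 for SNAI2. The part of GC content in these differences was not tested further. For VIM, KRT7, KRT8 and KRT18 the correction cannot be read, since their ranks have no room to rise.

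**Figure D3:**
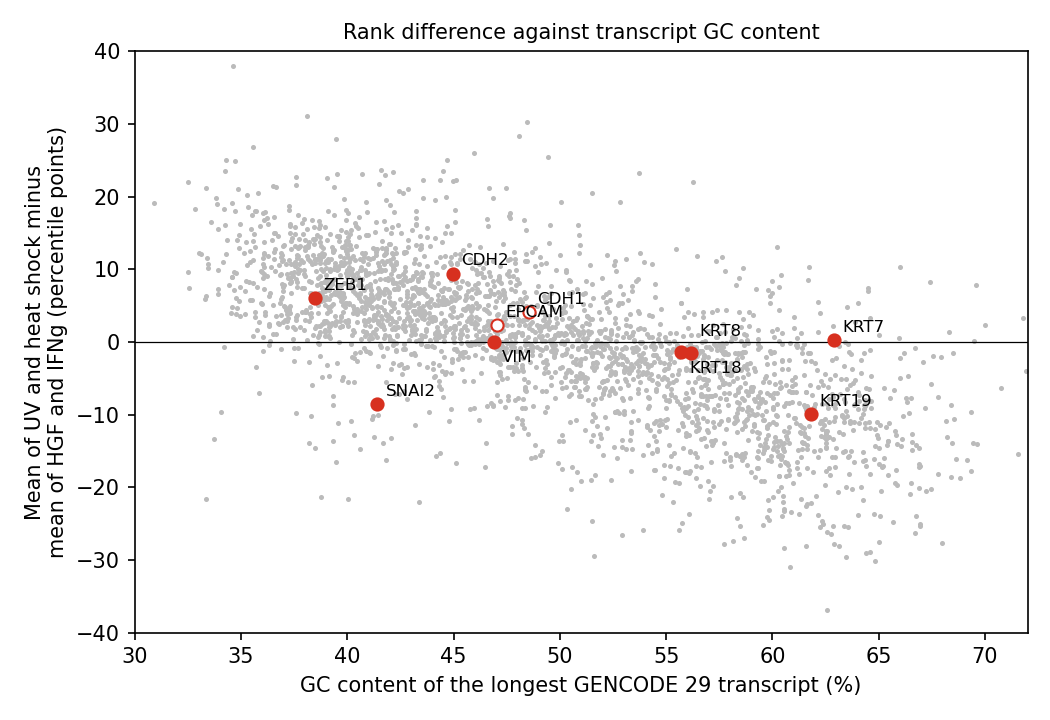
Difference between the mean percentile of UV and heat shock and that of HGF and IFNg (y axis, points) against GC content of the longest GENCODE 29 transcript (x axis, %), with values under 45.5 raised to it. Grey dots are every 4th gene model past the filter, filled red dots the 8 members past it and open dots CDH1 and EPCAM; SNAI2 lies at -8.56 points among low-GC genes that mostly have positive differences.

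The table listed 19 m6A peaks in 6 of the 10 genes: 9 with UV, 5 with heat shock, 4 with HGF and 1 with IFNg. They joined into 12 sites when peaks within 100 nt were taken as 1. Of these, 1 was listed in all 4 treatments, 4 in 2 treatments and 7 in a single treatment, or 8.33%, 33.3% and 58.3%. Over all 17764 sites of the table the shares were 16.5%, 25.9% and 40.3%. Of the 19 peaks, 11 (57.9%) were in coding sequence, 4 (21.1%) around the stop codon and 4 (21.1%) at the transcript start, with none in the 3' UTR. Over all 37501 listed peaks these segments held 41.0%, 27.3%, 6.52% and 20.3%. Peaks of 1 gene share a transcript, so the 19 are not independent. The whole table also listed fewest peaks after IFNg (5280, against 13307 with UV), and more peaks may be listed where a library is deeper, which cannot be seen here. A site that is not listed is not shown to be unmethylated.

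Of the 4 keratins, KRT7 had 4 peaks and KRT8 had 1, all with low scores. KRT18 and KRT19 had none in any treatment. Among the 654 models at percentile 95 or more in all 4 treatments, 19.6% had none either, so KRT18 is not unusual in this. The KRT8 peak was listed after HGF, at position 190 of the transcript in exon 1 (419 bases long, transcript start). Its score of 2.13 is at percentile 6.20 of HGF peaks, where the lowest listed score is 2.00. The score is the authors' own, and its formula is not stated in any source used here, so it is ranked within a treatment only.

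KRT7 had peaks after UV and heat shock only. After UV they lay at position 134 at the transcript start in exon 1 (451 bases) and at 1509 around the stop codon in exon 9 (335 bases), with scores of 2.94 and 2.52. After heat shock they lay at 122, at the transcript start, and at 351 in coding sequence, both in exon 1, with scores of 2.69 and 2.86. The start peaks of the 2 treatments were 12 nt apart and made 1 site. All 4 scores were low in their treatment, between percentiles 11.7 and 24.0. No peak was listed after HGF or IFNg, although KRT7 ranked at 99.2 and 99.7 there. Among models at percentile 95 or more, 45.4% had a peak after HGF and 35.1% after IFNg, against 66.3% after UV and 58.6% after heat shock.

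VIM had 2 peaks after UV, 1 with heat shock, 1 with HGF and none after IFNg, all in the 710-base exon 1. The UV peak at 429 had a score of 5.05, at percentile 73.3 of UV peaks, and the heat shock peak at 424 a score of 4.26, at percentile 64.8. They are 5 nt apart in coding sequence, beside the GGAC pair printed above. The second UV peak, at 643, was weaker, with a score of 2.50 at percentile 11.3. The HGF peak lay elsewhere, at 76 at the transcript start, with a score of 2.20 at percentile 8.88, and 314 nt from the nearest GGAC of the exon. So the stronger VIM site was listed after UV and heat shock and not after HGF or IFNg, the treatments in which fewer models of such rank had any peak (45.4% and 35.1%, against 66.3% and 58.6%). Why the site was not listed there was not tested.

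**Figure D4:**
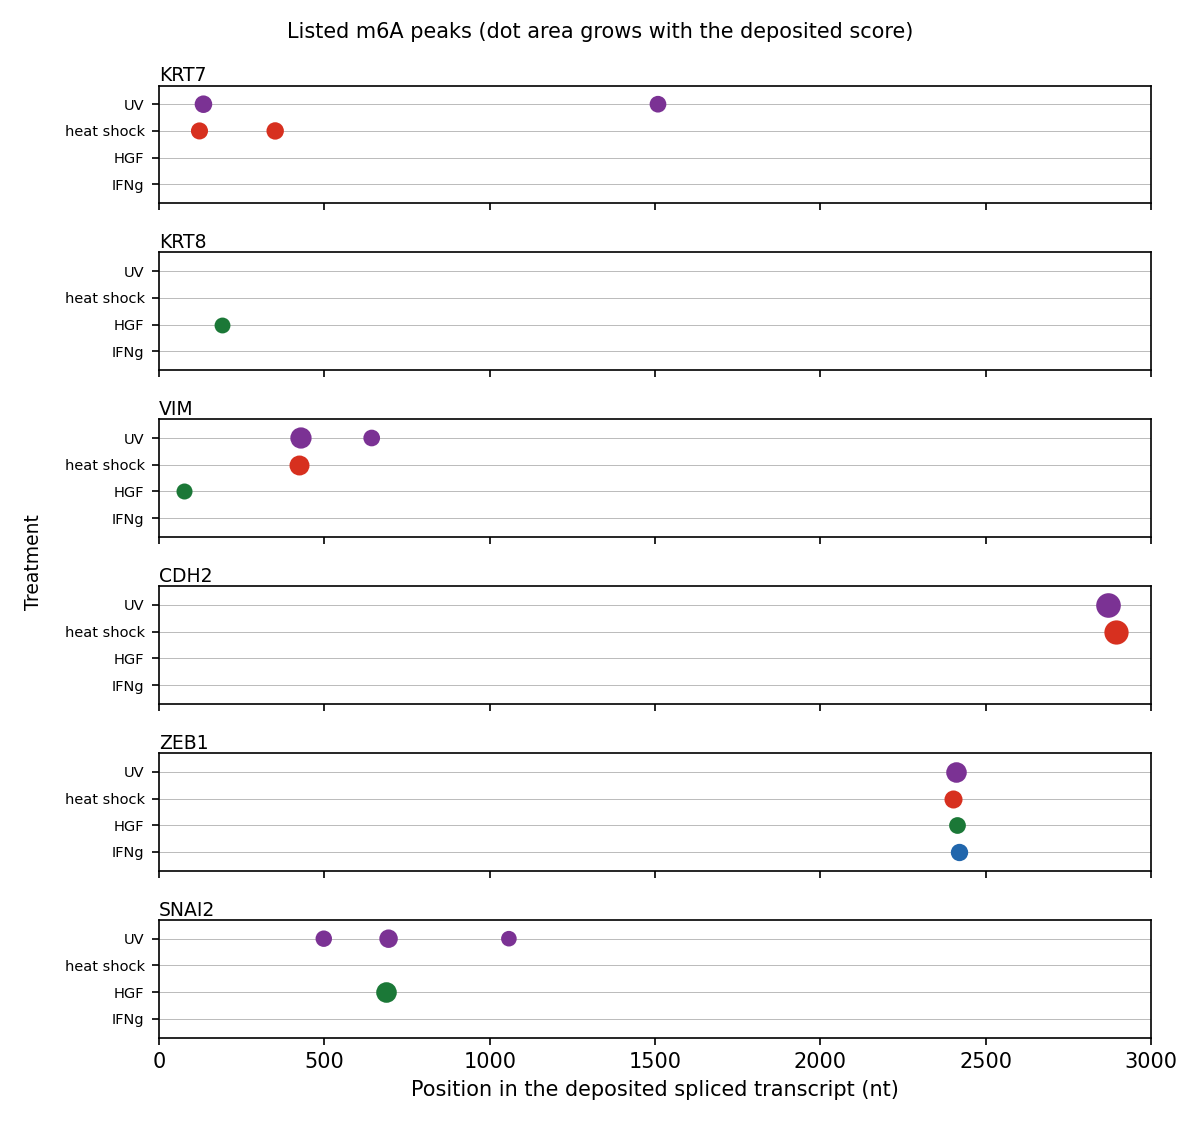
Position of every listed m6A peak in the deposited spliced transcript (x axis, nt) for the 6 genes with a peak, 1 line per treatment (y axis), with a dot area that grows with the deposited score. ZEB1 has a peak at 2401 to 2420 in all 4 treatments, while the CDH2 peak is listed after UV and heat shock only.

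CDH2 had the highest scores of the set. Its peak lay around the stop codon in exon 16 (1389 bases), at position 2871 with UV and 2894 with heat shock, 23 nt apart. The scores were 7.35 and 7.08, at percentiles 98.1 and 99.5 of all peaks in those treatments. No CDH2 peak was listed after HGF or IFNg, where its rank was lower, at 79.6 and 83.3. Among models from percentile 60 to 95, 47.1% had a peak after HGF and 32.0% after IFNg, against 60.3% after UV and 47.3% after heat shock. A model without a listed peak is thus common at such ranks. These shares count models with any peak, so they do not show how often a site with scores this high goes unlisted. Why the CDH2 site was not listed after HGF or IFNg was not tested. CDH1 and EPCAM, the lowest ranks of the set, had no peak in any treatment.

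ZEB1 was the only member with a peak in every treatment, always 1, in coding sequence of the long exon 7 (1811 bases). The positions were 2412 with UV, 2401 with heat shock, 2415 with HGF and 2420 with IFNg, a spread of 19 nt, under the length of 1 fragment. The scores were 4.61, 3.18, 2.53 and 2.83, at percentiles 63.1, 33.7, 22.7 and 41.9 of their treatments. This was also the only IFNg peak of the set. SNAI2 had 3 peaks after UV, 1 with HGF and none after heat shock or IFNg. The UV peaks lay at 498 and 694 in coding sequence of exon 2 (546 bases) and at 1058 around the stop codon in exon 3 (1307 bases), with scores of 2.39, 3.42 and 2.01. The HGF peak lay at 686, 8 nt from the UV peak at 694, and its score of 4.64 was at percentile 82.4 of HGF peaks. SNAI2 ranked highest after IFNg, at 87.4, where no peak of it was listed, as was so for most models from percentile 60 to 95 there.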

How the data were processed

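The authors deposited 1 table of 25918 gene models, from cultures labelled HepG2 with 1 m6A IP and 1 input library per treatment. Its values are, per the file headers, an expression quantile (a fraction from 0 to 1), a count of peaks per model, and for each peak a position, exon number, exon length, segment and score. Multiplied by 25918, the deposited fractions were whole numbers within 0.01, so they are ranks. Fragments of polyA-selected RNA were precipitated, per the labels' protocols. No source used here names the aligner, the peak caller, the library behind the rank or the genome build. The planned tests assumed no unit beyond ranks and peaks, and none was possible with 1 library of a kind per treatment. Members and lists were chosen with earlier results of these data known. All 10 members are named. List genes are those standing apart (up to 5 per direction and treatment), with ALB, AFP, APOA1 and HNF4A and the first 2 markers of each other cell type. Genes that make up a count of 5 or fewer (such as the 3 other cadherins past the filter) and other examples were named with their values in view. A symbol with several models took the model with the highest mean rank, and 12624 models passed the filter of percentile 60. Of the listed genes, 5 symbols were not found under that name. GC content came from the longest GENCODE 29 transcript of the symbol, through older symbols and RefSeq synonyms, for 88.6% of models past the filter (78.0% without RefSeq synonyms), in 40 bins. RefSeq promoter sequences (GRCh38.p14) matched 4 of the 10 members and are not shown. Some genes that the naming rule selects are left out of the text. The rank rule and the joining of peaks were run on simulated data as a check of the code only. The simulated shifts were far above 10 points, so this does not show how often the rule errs on these data. Python 3.11.15, pandas 2.3.3, NumPy 2.4.6 and matplotlib 3.10.9 were used.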

Additional observations from a re-analysis of the deposited data

How the results depend on the processing

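With 1 library of a kind per treatment nothing could be left out, and depth is unknown. No paired analysis was possible because no result comes from a test. Counts below sum over the 4 treatments. Members standing apart numbered 1 (KRT19 after HGF), also with floors as deposited and with the median over models. The number was 6 when re-ranked among models above the floor in all 4 treatments, 6 at 5 points, 0 at 20 points, 3 on a 2-fold log2 scale of rank from the top and 2 with GC correction. The 6 were KRT19, ZEB1 and SNAI2, each in heat shock and 1 other treatment. The 3 were KRT7 lower after HGF, and KRT8 lower after heat shock and higher after IFNg. The 2 were SNAI2 lower after heat shock and higher after IFNg, without KRT19. Epithelial genes higher and lower (3 and 2) became 6 and 5 when re-ranked, 9 and 6 at 5 points, 0 and 0 at 20 points, 1 and 1 on the log2 scale. Lower ones became 5 with floors as deposited and 1 with GC correction. Mesenchymal genes (1 and 1) became 3 and 4 when re-ranked, 3 and 6 at 5 points and 0 and 0 at 20 points. On the log2 scale 0 were lower, and with GC correction 3 were higher. The 12 member sites, 5 of them in 2 or more treatments, became 4 and 2 among peaks at or above the treatment's median score: CDH2 and VIM (UV and heat shock), SNAI2 (HGF) and ZEB1 (UV). Joining within 50 or 200 nt gave 12 and 11 sites.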
